A study of Mus musculus with 8 samples.

Results

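The genes described here encode the core of the death complexes that RIPK1 nucleates: Ripk1, its partner adaptors Tradd, Traf2 and Fadd, the protease Casp8 and its regulator Cflar, the deubiquitinase Cyld, and the necroptosis genes Ripk3, Mlkl and Zbp1. They were chosen by name, and all 10 were found among the 55335 genes of the count table. All 10 also had enough counts to be tested. They were measured in liver RNA from 8 female mice that had all received ethanol in the NIAAA chronic-plus-binge model, which pairs a period on an ethanol diet with a final ethanol dose. Mice 28, 34, 37 and 39 carried a hepatocyte-specific deletion of Ripk1 (Ripk1-hepKO), and mice 29, 32, 40 and 41 were their controls (Ripk1-Con). The labels used here name neither the driver of the deletion nor the strain or age of the mice. No mice without ethanol were analysed here. A deletion aimed at hepatocytes leaves the gene in the other cells of the liver, whose RNA is in the same libraries.

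RIPK1 is a kinase and scaffold. After TNF binds its receptor, TRADD and RIPK1 assemble at the receptor with TRAF2 and ubiquitin ligases, and this first complex signals survival. When that checkpoint fails, for instance after CYLD trims the ubiquitin chains, RIPK1 moves into a cytosolic complex with FADD and caspase-8, which starts apoptosis unless the caspase-8 homologue FLIP (Cflar) restrains it. Where caspase-8 is inactive, RIPK1 or the nucleic acid sensor ZBP1 engages RIPK3, which phosphorylates MLKL, the protein that ruptures the membrane in necroptosis. Healthy hepatocytes are known for very low RIPK3, while macrophages express it.

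Total counts ran from 28038390 to 67328158 per library. Mouse 28 stood apart, with a mean Spearman correlation to the other libraries of 0.954, where the remaining 7 lay between 0.974 and 0.980. Values are therefore also given without mouse 28 where that changes them most. The counts behind the member genes ran from 11 for Ripk3 in mouse 40 to 8964 for Cflar in mouse 32.

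Ripk1, the gene whose deletion defines the groups, has a pair of transcription starts in RefSeq on GRCm38.p6, 511 bases apart on the plus strand of chromosome 13. A count per gene adds up the transcripts of both. The bases before each start are shown because the table cannot tell which start any Ripk1 count came from. The first run holds the 250 bases before the upstream start (chr13:34002113-34002362). The second runs from the end of the first exon of the upstream transcripts to just past the downstream start (chr13:34002707-34002878), where the principal transcript begins. Capitals mark matches, on either strand, to a GAS-like motif (TTC and GAA with 3 bases between) or an ISRE-like motif (GAAA and GAAA with 2 bases between), the patterns that STAT and IRF factors are known to bind.
Ripk1 upstream start: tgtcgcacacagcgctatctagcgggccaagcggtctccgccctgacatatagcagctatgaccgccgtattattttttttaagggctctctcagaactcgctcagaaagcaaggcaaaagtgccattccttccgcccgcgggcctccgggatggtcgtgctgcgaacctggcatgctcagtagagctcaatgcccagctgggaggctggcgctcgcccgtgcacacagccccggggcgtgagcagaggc
Ripk1 downstream start: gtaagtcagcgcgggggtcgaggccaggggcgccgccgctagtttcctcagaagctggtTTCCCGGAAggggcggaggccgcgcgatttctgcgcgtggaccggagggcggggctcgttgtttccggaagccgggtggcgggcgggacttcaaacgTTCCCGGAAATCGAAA

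The downstream run holds a GAS-like match at -108 and another at -11, counted from the start as 0. The second of them overlaps an ISRE-like match at -5. The window of the upstream start holds neither motif. Both Ripk1 starts were searched from 250 bases before to 50 after, windows that differ in extent from the runs printed. Of 32851 RefSeq promoter windows with these bounds, 8.3% hold the GAS-like motif and 3.44% the ISRE-like one. RefSeq windows were matched for 8 of the 10 genes, with 9 windows in all. Zbp1 and Tradd had no window, so their promoters were not searched. The ISRE-like motif was in those of Ripk1 and Cflar, the GAS-like motif in that of Ripk1 alone, and the NF-kB consensus in that of Cyld alone (4.51% of all windows). These are matches of letters, not measured binding sites. The level of Ripk1 across the 8 mice had a Pearson r of -0.175 with the level of 30 interferon-stimulated genes (exact permutation p = 0.639) and a rho of 0.143 (p = 0.752), with r = 0.484 without mice 32 and 39.

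Expressed per length, Casp8 and Cflar were the most abundant members in these livers and Ripk3 the least. RPKM values here are TMM-scaled counts, adjusted for library size and for the length of all annotated exons. Casp8 stood at 12.1 ± 3.92 RPKM (SD, n = 8 mice, both genotypes), followed by Cflar at 8.81 ± 1.39. Ripk1 stood at 4.19 ± 1.07 RPKM, Mlkl at 3.43 ± 1.02, Zbp1 at 2.55 ± 2.07, Tradd at 2.15 ± 0.239 and Traf2 at 1.88 ± 0.337. Fadd (1.58 ± 0.293), Cyld (1.22 ± 0.188) and Ripk3 (0.772 ± 0.381) were lowest. Of the 9 neighbouring pairs in this order, Cflar and Ripk1 were the pair whose ranges over the mice did not overlap. All other neighbours had overlapping ranges. Without mouse 28, Zbp1 stood at 1.85 ± 0.594 RPKM (n = 7), below Tradd and Traf2. Casp8 exceeded Cflar in 5 of 8 mice, Zbp1 exceeded Tradd in 3 of 8, and Cyld exceeded Ripk3 in 7 of 8.

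The length chosen for a gene moves this order. With the length of the longest principal transcript in place of all exons, a choice added after the data had been seen, Cflar led at 17.0 ± 2.69 RPKM and Casp8 followed at 13.5 ± 4.39. Zbp1 rose to 4.53 ± 3.67 RPKM and passed Mlkl, at 4.0 ± 1.19, but without mouse 28 it was 3.28 ± 1.05 against 3.77 ± 1.07 for Mlkl. Ripk3 was lowest under both lengths, at 0.935 ± 0.461 RPKM with the principal transcript. Ripk1 followed Casp8 and Cflar under both.

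**Figure D1:**
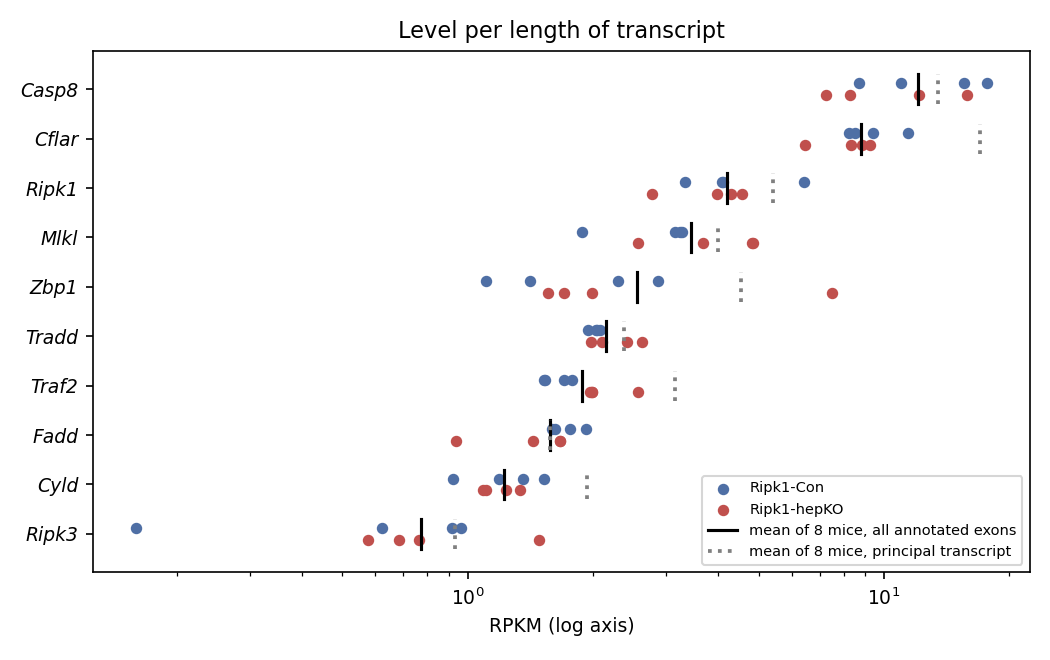
Level of each gene in RPKM (log axis), 1 point per mouse, blue for Ripk1-Con and red for Ripk1-hepKO. Solid bars are means over 8 mice with all annotated exons as length and dotted bars with the principal transcript. Casp8 and Cflar lie at the top and Ripk3 at the bottom under either length.

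Between the genotypes, none of the 10 genes passed the threshold. Over the whole table, 0 of 15234 genes passed an FDR of 0.05 in edgeR's quasi-likelihood test (0% called), and 6.68% had an unadjusted p under 0.05. limma voom also called 0 genes, while the DESeq2 Wald test called 15, none of them a member. One member, Traf2, had an unadjusted p under 0.05, and it was also the single member whose groups did not overlap. Over all genes, 4.1% had groups that did not overlap, 2.01% with Ripk1-hepKO above. A count of 1 in 10 is therefore no result about these genes as a set. Of the 10, 5 lay above 0, and their median log2 fold change (Ripk1-hepKO over Ripk1-Con throughout) was 0.05. For all genes tested, 51.8% lay above 0 and the median was 0.01.

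Ripk1 itself (ENSMUSG00000021408, chromosome 13, 34002363 to 34037147 on GRCm38) was not depleted in the libraries labelled Ripk1-hepKO beyond the spread between mice. In counts scaled by TMM to a common library size (CPM), mice 28, 34, 37 and 39 stood at 38.1, 35.8, 33.1 and 23.1, and controls 29, 32, 40 and 41 at 34.3, 53.6, 27.8 and 34.2. The groups overlapped, with the highest value in control mouse 32 and the lowest in Ripk1-hepKO mouse 39. Its log2 fold change was -0.21 ± 0.22 (SE; adjusted p of 0.866 in edgeR), and the 95% confidence interval covered 61.4% to 123% of the control level. The log2 fold change was 0.02 without control mouse 32, -0.32 without control mouse 40 and -0.41 without mice 28 and 40. A gene-level count does not show which exons the reads cover, so a transcript that lost an exon can still be counted. Of the exonic bases of Ripk1, 2.89% overlap Serpinb6a on the other strand and 6.12% a pseudogene. Over all 8 libraries Serpinb6a had 4634 counts and the pseudogene 11, against 12854 for Ripk1.

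**Figure D2:**
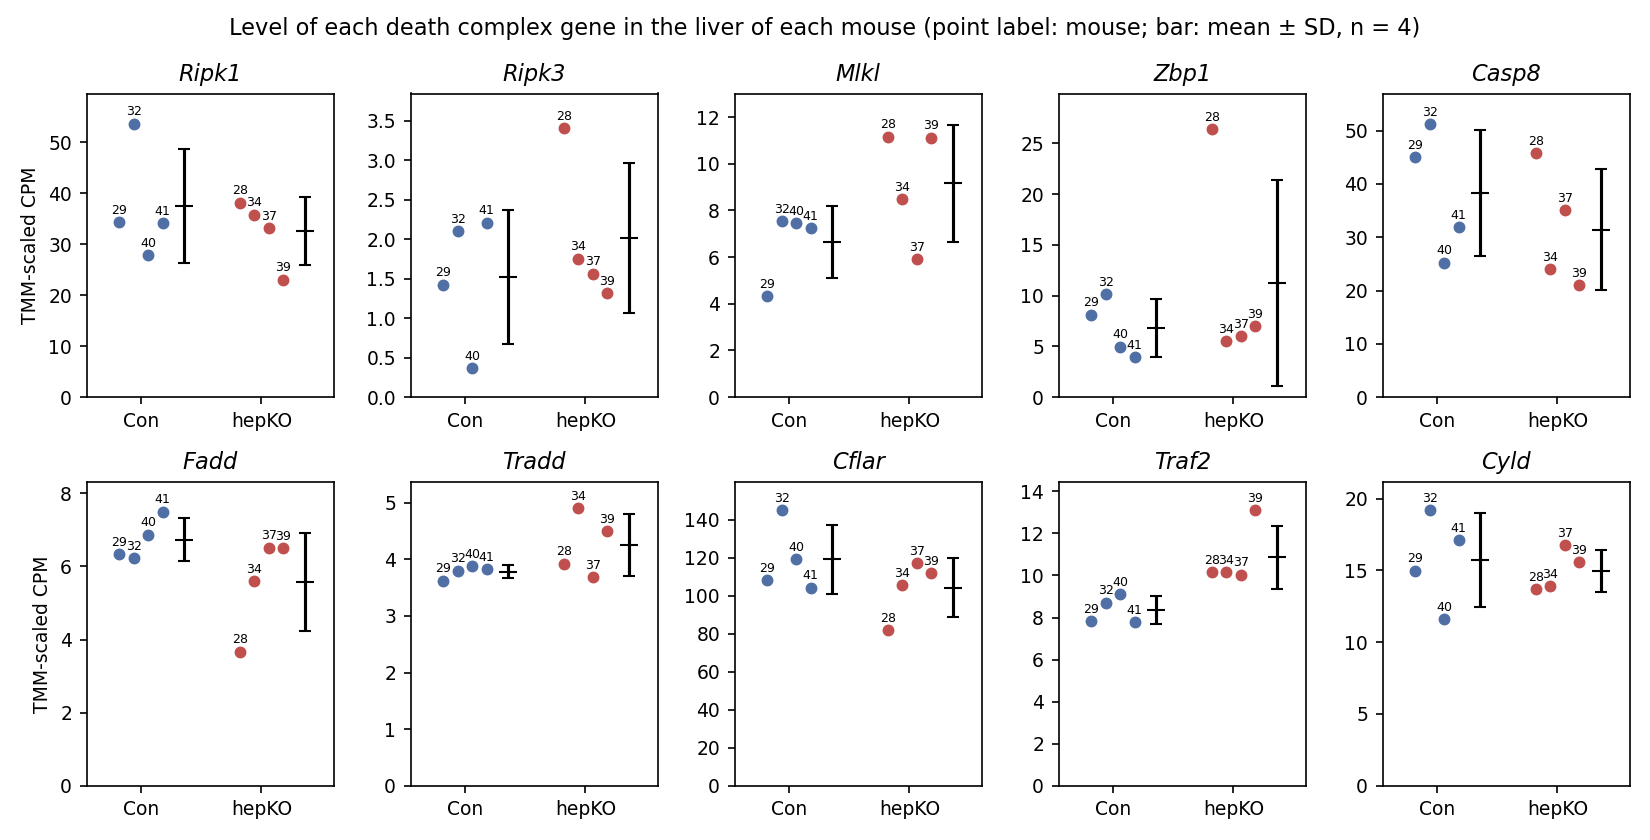
TMM-scaled CPM of each gene in each mouse, with the mouse number beside each point and the group mean ± SD (n = 4) as a bar. Traf2 is the gene whose groups do not overlap, and Zbp1 shows mouse 28 far above the other mice.

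The adaptors had estimates of either sign, and none passed the threshold. Traf2, which brings the ubiquitin ligases BIRC2 and BIRC3 to the TNF receptor (ENSMUSG00000026942, chromosome 2, 25517982 to 25546940), stood at 10.2, 10.1, 10.04 and 13.1 CPM in Ripk1-hepKO mice 28, 34, 37 and 39. In controls 29, 32, 40 and 41 it stood at 7.82, 8.71, 9.10 and 7.77 CPM. All 4 Ripk1-hepKO mice lay above all 4 controls, with mouse 39 the highest. This was a log2 fold change of 0.38 ± 0.14 (SE), with a 95% interval of 105% to 161% of the control level (adjusted p of 0.742 in edgeR and 0.478 in DESeq2). With each mouse left out in turn it ran from 0.28 to 0.43.

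Tradd, the first adaptor at the TNF receptor (ENSMUSG00000031887, chromosome 8, 105258286 to 105264609), spanned the narrowest range of the members over the 8 mice. Ripk1-hepKO mice 28, 34, 37 and 39 had 3.92, 4.91, 3.69 and 4.49 CPM, and controls 29, 32, 40 and 41 had 3.62, 3.80, 3.89 and 3.82 CPM. The controls lay close together, mouse 37 lay among them, and the other 3 Ripk1-hepKO mice lay above them. Its log2 fold change was 0.17 ± 0.15 (SE; adjusted p of 0.838 in edgeR). Fadd, which links the complex to caspase-8 (ENSMUSG00000031077, chromosome 7, 144577318 to 144582463), stood at 3.67, 5.6, 6.52 and 6.50 CPM in Ripk1-hepKO mice and 6.33, 6.22, 6.87 and 7.50 CPM in controls, in the same order of mice. Mouse 28 was the lowest of the 8. For Fadd the log2 fold change was -0.27 ± 0.20 (adjusted p of 0.804 in edgeR), and with each mouse left out it ran from -0.35 to -0.12.

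Caspase-8 and its regulators did not differ between the genotypes beyond the spread between mice. Casp8 (ENSMUSG00000026029, chromosome 1, 58795374 to 58847503) had 45.7, 23.9, 35.1 and 21 CPM in Ripk1-hepKO mice 28, 34, 37 and 39, and 44.95, 51.2, 25.2 and 31.8 CPM in controls 29, 32, 40 and 41. Mice 32, 28 and 29 were high and mice 39, 34 and 40 low, so each end held both genotypes. Its log2 fold change was -0.29 ± 0.29 (SE; adjusted p of 0.858 in edgeR), with an interval of 52.1% to 129% of the control level. For Casp8 it was -0.52 without mouse 28 (adjusted p of 0.912 in edgeR) and -0.68 without mice 28 and 40 (adjusted p of 0.461). Cflar, its catalytically inactive homologue on the same chromosome (ENSMUSG00000026031, 58711508 to 58758884), stood at 81.9, 106, 117 and 112 CPM in Ripk1-hepKO mice and 108, 145, 119 and 104 CPM in controls. Mouse 28 was lowest and control mouse 32 highest. For Cflar the log2 fold change was -0.19 ± 0.15 (adjusted p of 0.812 in edgeR). Cyld (ENSMUSG00000036712, chromosome 8, 88697028 to 88751945) stood at 13.7, 13.9, 16.8 and 15.6 CPM against 15.0, 19.2, 11.6 and 17.1 CPM. The Ripk1-hepKO values of Cyld lay inside the range of the controls, and its log2 fold change was -0.07 ± 0.16 (adjusted p of 0.942 in edgeR).

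The necroptosis genes had positive estimates with wide intervals. Mlkl (ENSMUSG00000012519, chromosome 8, 111311797 to 111338177) had 11.2, 8.47, 5.91 and 11.1 CPM in Ripk1-hepKO mice 28, 34, 37 and 39, and 4.34, 7.55, 7.44 and 7.24 CPM in controls 29, 32, 40 and 41. In 3 of 4 Ripk1-hepKO mice Mlkl exceeded every control, and mouse 37 lay below 3 of the controls. Its log2 fold change was 0.46 ± 0.25 (SE; adjusted p of 0.769 in edgeR), and it ran from 0.31 to 0.63 with each mouse left out.

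Ripk3 (ENSMUSG00000022221, chromosome 14, 55784995 to 55788865) stood at 3.41, 1.76, 1.56 and 1.32 CPM in Ripk1-hepKO mice and 1.43, 2.10, 0.365 and 2.21 CPM in controls. The extremes were mouse 28 at the top and control mouse 40, with 11 counts, at the bottom, a span of 9.33-fold. For Ripk3 the log2 fold change was 0.39 ± 0.50 (adjusted p of 0.895 in edgeR). It was close to 0 without mouse 28 (-0.0027) and negative (-0.32) once mice 28 and 40 were both left out. Zbp1 (ENSMUSG00000027514, chromosome 2, 173206612 to 173218923) stood at 26.4, 5.49, 6.03 and 7.0 CPM in Ripk1-hepKO mice and 8.13, 10.1, 4.98 and 3.92 CPM in controls. Apart from mouse 28, the Ripk1-hepKO values of Zbp1 lay inside the control range. For Zbp1 the log2 fold change was 0.73 ± 0.55 (adjusted p of 0.811 in edgeR) and turned to -0.14 without mouse 28.

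**Figure D3:**
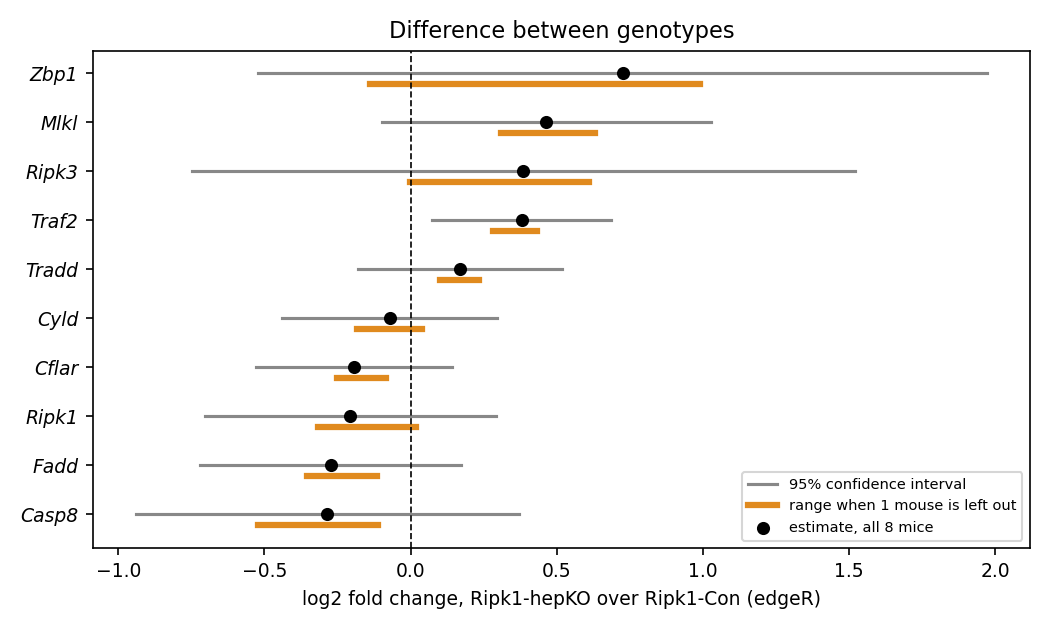
Log2 fold change of each gene, Ripk1-hepKO over Ripk1-Con, with its 95% confidence interval (grey) and the range of estimates when 1 mouse is left out (orange). The ranges of Zbp1, Ripk3, Ripk1 and Cyld cross 0, and the interval of Traf2 alone lies above 0 before adjustment.

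The members also differed in how much they varied between mice of 1 genotype. The biological coefficient of variation that edgeR estimated was 0.532 for Zbp1 and 0.498 for Ripk3, above the common value of 0.292 over all genes. It was 0.300 for Casp8, 0.266 for Mlkl, 0.241 for Ripk1 and 0.223 for Fadd. Cyld (0.193), Tradd (0.186), Cflar (0.185) and Traf2 (0.173) varied least. Over all 8 mice, the highest value exceeded the lowest by 1.36-fold for Tradd and by 6.74-fold for Zbp1. Without mouse 28 the span of Zbp1 was 2.59-fold and its coefficient 0.297, while Ripk3 kept a coefficient of 0.447. Fadd then had a coefficient of 0.159, below Traf2 (0.161), Tradd (0.175) and Cyld (0.183) and above Cflar (0.148). Its span without mouse 28 was 1.34-fold, against 1.35-fold for Tradd.

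Ratios of Cflar, Ripk3 and Mlkl to Casp8 were taken within each mouse, where no library scaling affects them. They are ratios of RNA in whole liver, where both genes of a ratio need not come from the same cells. Per count, Cflar exceeded Casp8 in every mouse, by 1.79, 4.41, 3.34 and 5.33 times in Ripk1-hepKO mice 28, 34, 37 and 39 and by 2.41, 2.83, 4.73 and 3.28 times in controls 29, 32, 40 and 41. These ratios are of counts, not of levels per length. As log2 ratios the 4 Ripk1-hepKO mice averaged 1.78 ± 0.69 (SD) and the 4 controls 1.68 ± 0.42, a difference of 0.10 (exact two-sided permutation p = 0.8). Its direction turned without mouse 29, 34 or 39, and without mouse 28 the difference was 0.42 (exact permutation p = 0.2). The log2 ratio of Ripk3 to Casp8 was -3.99 ± 0.34 against -4.86 ± 0.92, a difference of 0.87 (exact permutation p = 0.114). That of Mlkl to Casp8 was -1.75 ± 0.71 against -2.50 ± 0.71, a difference of 0.75 (exact permutation p = 0.2). Adjusted over the 3 ratios, these p-values became 0.8, 0.3 and 0.3, where 4 against 4 mice allow no unadjusted p below 0.0286. The difference for Ripk3 to Casp8 depended on single controls, at 1.21 without mouse 41 (exact permutation p = 0.0286, unadjusted) and 0.48 without mouse 40 (p = 0.229). Without mice 28 and 40 it was 0.40 (exact permutation p = 0.4).

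The 10 genes did not vary as 1 block across the mice. Pearson and Spearman correlations of log2(CPM + 1) were computed for all 45 pairs over the 8 mice, with exact permutation p-values over all pairings of the mice. No pair passed after Benjamini-Hochberg adjustment with either coefficient (lowest adjusted p = 0.314 for Pearson), and 4 pairs had an unadjusted Pearson p under 0.05. Of the 45 coefficients 20 were positive, and their median was -0.0473. Ripk1 and Casp8 had r = 0.794 (exact permutation p = 0.00821, adjusted p = 0.314) and rho = 0.738 (p = 0.0458, adjusted p = 0.413). Control mouse 32 was highest and Ripk1-hepKO mouse 39 lowest in both genes. Without these mice, the farthest from the median of Ripk1, r was 0.524 (exact permutation p = 0.319), so the size of r depends in part on them. Without mouse 34, Ripk1 with Casp8 (r = 0.903) and Zbp1 with Fadd (r = -0.969) passed after adjustment.

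Zbp1 and Fadd had the most negative coefficient, r = -0.905 (exact permutation p = 0.0140, adjusted p = 0.314) and rho = -0.762 (p = 0.0368). The size of r depended on mouse 28, which was highest in Zbp1 and lowest in Fadd, since r without it was -0.514 and without mice 28 and 41 it was -0.103. Mlkl and Traf2 had r = 0.706 (exact permutation p = 0.0487, adjusted p = 0.548) and rho = 0.762 (p = 0.0368), and r was 0.676 without mice 28 and 29. Both genes had higher means in Ripk1-hepKO, and with each genotype centred on its own mean r was 0.540. Casp8 and Tradd had r = -0.702 (exact permutation p = 0.0451, adjusted p = 0.548), rho = -0.619 (p = 0.115), and r = -0.637 without mice 32 and 39. With libraries scaled by total count alone that pair had r = -0.946 and passed (adjusted p = 0.00112).

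**Figure D4:**
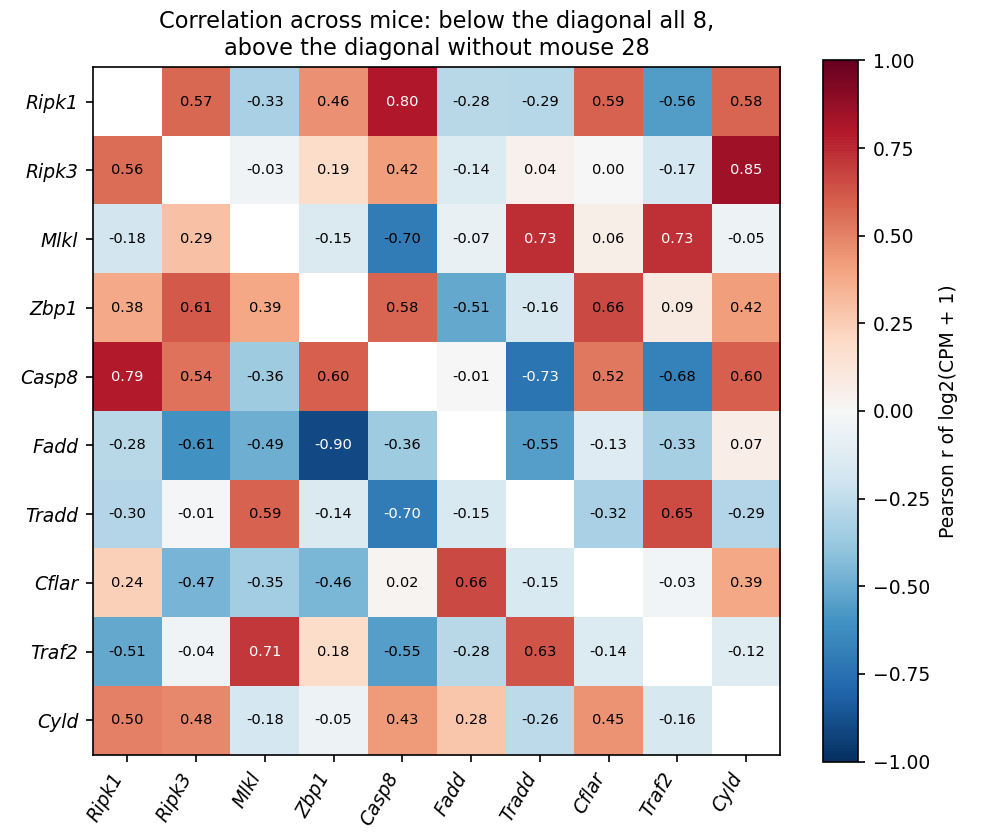
Pearson r of log2(CPM + 1) for each pair of genes, over all 8 mice below the diagonal and without mouse 28 above it. Ripk1 with Casp8 is red in both triangles (0.79 and 0.80), while Zbp1 with Fadd goes from -0.90 to -0.51.

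The members were also set beside levels of cell type markers in the same livers. Each of the 10 genes was compared with the mean log2(CPM + 1) of 4 lists: 15 hepatocyte markers, 12 Kupffer cell markers, 12 monocyte markers and 30 interferon-stimulated genes, all of whose genes were measured. Some monocyte markers, such as Cd68 and Spi1, are also expressed by Kupffer cells. The monocyte list also mixes genes of very different levels. Fn1 had group means of 2730 and 2975 CPM (Ripk1-hepKO first), against 2.79 and 1.64 for Ccr2. Whether Fn1 reflects monocytes in these livers was not tested. Of these 40 comparisons 2 passed after adjustment, Ripk1 with the hepatocyte list and Ripk3 with the monocyte list. That these relations differ from those with the other lists was not tested. In bulk liver, fewer cells of a type and less RNA per cell cannot be told apart.

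Ripk1 and the hepatocyte list had r = 0.904 (exact permutation p = 0.00166, adjusted p = 0.0332) and rho = 0.976 (p = 3.97e-04, adjusted p = 0.0159). The hepatocyte level was 12.1 in mice 28 and 32, where Ripk1 was highest, and 11.3 in mouse 39, where Ripk1 was lowest. The list holds markers that went different ways. Fga, Fgb and Fgg, the fibrinogen chains, Tat and Pck1, which encode inducible enzymes of amino acid breakdown and gluconeogenesis, were all highest in mouse 28 and lowest in mouse 39. Of the other 10 markers, 5 were lowest in mouse 28: Alb, Apoa2, Asgr1, Cps1 and Serpina1a. Split this way after the values had been seen, and so without a test, Ripk1 had r = 0.758 with the 5 variable markers and 0.573 with the mean of the other 10, which was lowest in mouse 28 (11.46) and highest in mouse 32 (11.87). Taken singly, 14 of the 15 markers had a positive r, from 0.0658 for Ttr to 0.882 for Apob, and Asgr1 had -0.33. With the whole list and without mice 32 and 39, r was 0.913 (exact permutation p = 0.0111), and within genotypes it was 0.899 (exact permutation p = 0.00174, adjusted p = 0.0694). The 576 pairings of mice within genotypes allow no smaller p, so a lone pair could not pass there. The TMM factors followed the same mice, at 0.918 and 0.919 in mice 28 and 32 and 1.11 in mouse 39. With libraries scaled by total count alone, r was 0.822 and did not pass (adjusted p = 0.22). With 1 mouse left out, the pair still passed without mouse 28 or 32 and did not without 29, 34, 37, 39, 40 or 41, where r ran from 0.8287 to 0.916 (adjusted p of 0.0556 to 0.114). The hepatocyte level itself ran from 11.3 to 12.1 in Ripk1-hepKO and 11.6 to 12.1 in Ripk1-Con, with a difference of -0.11 (exact permutation p = 0.629). Ripk1 with the monocyte list had r = 0.594 (exact permutation p = 0.107, adjusted p = 0.375), rho = 0.738 (p = 0.0458), and r = 0.917 without mice 32 and 39. Casp8 had r = 0.812 with the hepatocyte list (exact permutation p = 0.0143, adjusted p = 0.143), rho = 0.833 (p = 0.0154), and r = 0.605 without mice 32 and 39. Without mouse 34 it passed (r = 0.951, adjusted p = 0.0397).

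Ripk3 and the monocyte list had r = 0.961 (exact permutation p = 0.00139, adjusted p = 0.0332) and rho = 0.881 (p = 0.00724, adjusted p = 0.143). Mouse 28 was highest and mouse 40 lowest in both, at 3.39 and 2.15 for the list. Without this pair of mice r was 0.684 (exact permutation p = 0.147), so the size of r depends on them. With each genotype centred on its own mean r was still 0.961, but the pair did not pass (adjusted p = 0.122). The 576 pairings of mice within genotypes allow no lone pair to pass, so that setting could not decide the call. With scaling by total count the pair did not pass either (r = 0.95, adjusted p = 0.104). With 1 mouse left out it passed without mouse 37 alone (r = 0.986), and otherwise r was at least 0.902 (adjusted p of 0.0556 to 0.194). Ripk3 with the hepatocyte list had r = 0.663 (exact permutation p = 0.0757, adjusted p = 0.375), rho = 0.690 (p = 0.0694), and r = 0.657 without mice 28 and 40. Ripk3 and the Kupffer cell list had r = 0.860 (exact permutation p = 0.00943, adjusted p = 0.126), rho = 0.786 (p = 0.0279), and r = 0.905 without mice 28 and 40. Without mouse 28 alone, Ripk3 with the Kupffer cell list passed (r = 0.979, adjusted p = 0.0318). Without mouse 40 alone its r was 0.5575 (adjusted p = 0.538). Cyld had r = 0.779 with the Kupffer cell list (exact permutation p = 0.0214, adjusted p = 0.171), rho = 0.762 (p = 0.0368), and r = 0.275 without mice 32 and 40. The Kupffer cell level ran from 4.27 to 4.70 in Ripk1-hepKO and 3.07 to 4.96 in Ripk1-Con, and the monocyte level from 2.61 to 3.39 and 2.15 to 3.01.

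Zbp1 and Mlkl are known as interferon-induced genes. Zbp1 had r = 0.732 with the interferon-stimulated list (exact permutation p = 0.0375, adjusted p = 0.25) and rho = 0.857 (p = 0.0107, adjusted p = 0.143). Without mice 28 and 41, the highest and lowest in Zbp1, r was 0.379, so the size of r depends on them. Leaving out the ends of a range narrows it, which can itself lower r. Mouse 39 had nearly the same level of the interferon list as mouse 28 (3.81 and 3.84), but Zbp1 at 7.0 CPM there, against 26.4 CPM in mouse 28. Mlkl had r = 0.667 with the list (exact permutation p = 0.0707, adjusted p = 0.375), rho = 0.429 (p = 0.299), and r = 0.692 without mice 28 and 29. Mlkl stood above 11 CPM in mice 28 and 39.

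**Figure D5:**
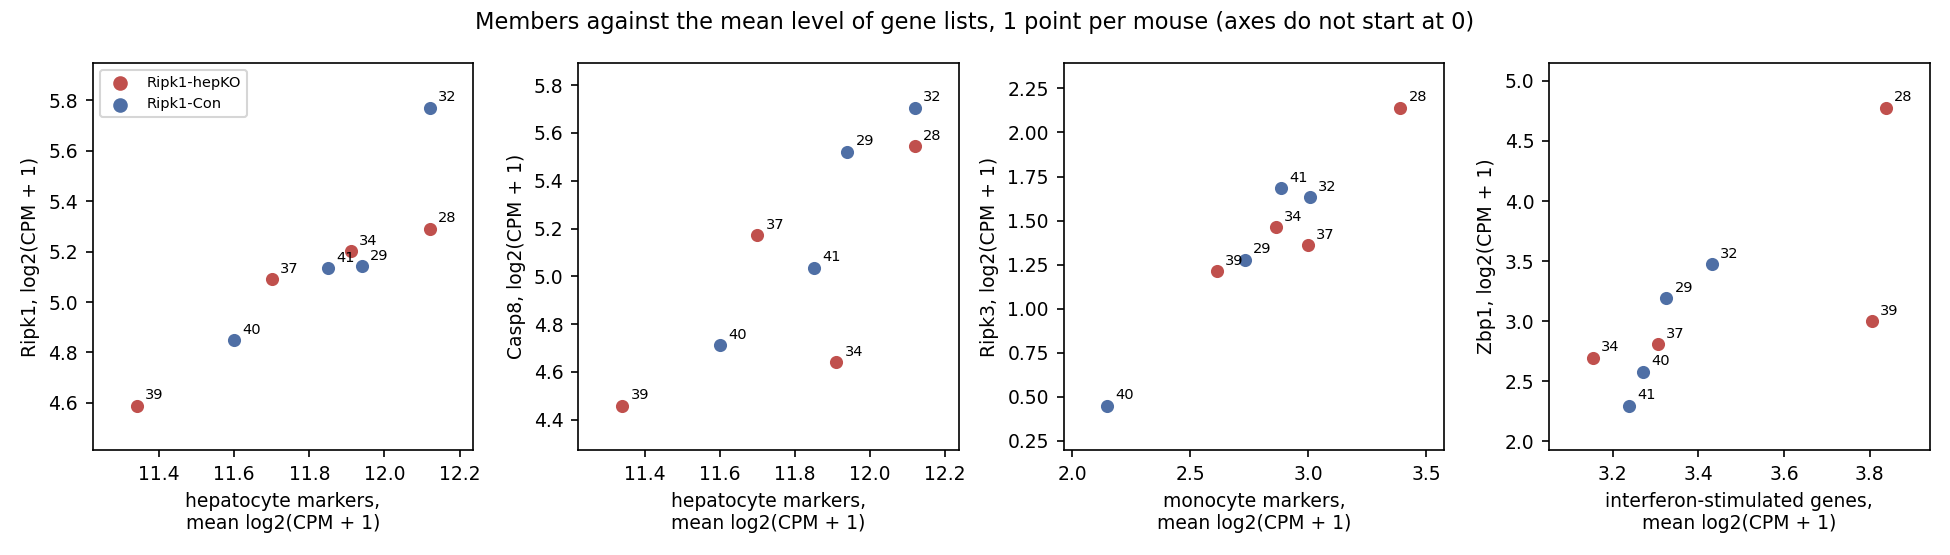
Ripk1 and Casp8 against hepatocyte markers, Ripk3 against monocyte markers and Zbp1 against interferon-stimulated genes, as log2(CPM + 1) with 1 point per mouse (blue Ripk1-Con, red Ripk1-hepKO, number of the mouse beside it). Mice 32 and 39 mark the ends for Ripk1, and mice 28 and 40 those for Ripk3.

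The genes around the complexes were read from lists of receptors, checkpoint enzymes, effectors and interferon-stimulated genes, with 0 members past the FDR of 0.05 in any of them. Of 12 measured ligands, receptors and proximal adaptors, 8 had positive log2 fold changes, the median was 0.03, and none had an unadjusted p under 0.05. Fasl had too few counts to be tested. The smallest p values were those of Fas, the death receptor, at 17.2 ± 2.30 CPM (mean ± SD of the 4 Ripk1-hepKO mice, always given first below) against 23.7 ± 9.24 for the 4 controls, and Tlr3, a sensor of double-stranded RNA, at 3.45 ± 0.914 against 4.4 ± 1.09. Tnfrsf1a, the TNF receptor that recruits TRADD and RIPK1, stood at 116 ± 41.4 against 93.5 ± 33.7 CPM, and its ligand Tnf at 0.491 ± 0.164 against 0.296 ± 0.242. Tnf had few counts, from 0.0475 CPM in control mouse 41 to 0.668 in Ripk1-hepKO mouse 39 (log2 fold change 0.73 ± 0.62, SE).

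Of 20 genes of the ubiquitin and kinase checkpoint, 14 lay above 0, with a median of 0.06. In this list 4 genes had an unadjusted p under 0.05, all higher, where 3.86% of all genes were higher at that p. Birc3, a ubiquitin ligase that TRAF2 recruits and NF-kB induces, had 17.7, 10.98, 11.3 and 13.3 CPM in Ripk1-hepKO mice 28, 34, 37 and 39 and 7.27, 9.49, 7.34 and 9.14 CPM in controls 29, 32, 40 and 41. As for Traf2, its groups did not overlap (log2 fold change 0.68 ± 0.18, SE; adjusted p of 0.742 in edgeR). Ikbke, a kinase related to TBK1, stood at 58.2 ± 19.4 against 38.3 ± 2.94 CPM. Tnfaip3, the ubiquitin editor A20, stood at 7.73 ± 2.83 against 4.63 ± 0.874 CPM, and Sharpin, a subunit of the linear ubiquitin ligase, at 23.3 ± 2.09 against 19.3 ± 2.01. Mouse 28 was the highest of the 8 in each of these 4 genes. Without it the Ripk1-hepKO means were 11.9 ± 1.27 for Birc3, 50.7 ± 15.3 for Ikbke, 6.47 ± 1.6 for Tnfaip3 and 22.6 ± 1.82 for Sharpin (SD, n = 3).

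Among 18 effectors and regulators below the complexes, 11 lay above 0, with a median of 0.06. Of the 18, 3 had an unadjusted p under 0.05, all higher, where 3.86% of all genes were higher at that p. Bak1, which opens the mitochondrial outer membrane, stood at 16.6 ± 2.93 against 11.1 ± 1.14 CPM, and Gsdmd, the pore protein of pyroptosis, at 22.8 ± 0.928 against 17.9 ± 2.14. Both had groups that did not overlap, as did 2.01% of all genes with Ripk1-hepKO above. Apaf1, the scaffold of the apoptosome, stood at 7.43 ± 6.92 against 3.62 ± 0.715, with 17.7 CPM in mouse 28 and 4.01 ± 1.17 in the other 3 Ripk1-hepKO mice. Of 30 interferon-stimulated genes, 23 lay above 0, with a median of 0.24, where 51.8% of all genes lay above 0 (median 0.01). Of the 30, 4 had an unadjusted p under 0.05, all higher, against 3.86% of all genes. Gbp2, a guanylate-binding protein, stood at 15.4 ± 10.2 against 6.37 ± 1.92 CPM (10.8 ± 5.17 without mouse 28), and Ifit2 at 5.64 ± 3.05 against 1.42 ± 1.35. Psmb8, a subunit of the immunoproteasome, stood at 24.5 ± 3.64 against 19.2 ± 1.49 CPM, and Oasl1 at 6.73 ± 2.27 against 4.41 ± 0.779. Mouse 28 or 39 was the highest of the 8 in each of them. The mean log2(CPM + 1) of the 30 genes was 3.838 and 3.805 in mice 28 and 39. It was 3.154 and 3.305 in mice 34 and 37, and 3.238 to 3.431 in the controls. Without mouse 28 fewer of the 30 genes lay above 0, and their median was lower. The medians of the other lists, and all medians without mouse 39, were not examined in this way.

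The genes whose levels followed a member most closely were sought among 8922 named genes with a mean of at least 5 CPM, by Pearson r of log2(CPM + 1) over the 8 mice. These values rank genes and carry no test. The genes were chosen on all 8 mice, so their r without mouse 28 is no separate check. For Ripk1 they were Tmem30a, a subunit of lipid flippases (r = 0.980), Rbm15, an RNA-binding adaptor of the m6A writer (0.971), Ddi2, a protease that processes NRF1 (0.970), Rxra, a nuclear receptor (0.968), and B4galt1, a galactosyltransferase (0.966). For Casp8 they were Gk, glycerol kinase (0.991), Zbtb43 (0.983), Zfand6 (0.967), Zfp36, the mRNA-destabilising protein tristetraprolin (0.961), and Oat, ornithine aminotransferase (0.956). Without mouse 28 the values of these genes were 0.968 to 0.980 for Ripk1 and 0.951 to 0.991 for Casp8.

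For Mlkl they were Lgals3bp, a secreted galectin-binding protein (r = 0.946), Tpm1, a tropomyosin (0.920), Tuba1c, an alpha-tubulin (0.918), Fnip2 (0.914) and Calm2, a calmodulin gene (0.903). For Zbp1 they were Zfp36l1, a relative of tristetraprolin (0.980), Arpc4, a subunit of the Arp2/3 complex (0.976), Pdcd5 (0.970), Zdhhc13, a palmitoyltransferase (0.969), and Msra, which repairs oxidised methionine (0.968). Without mouse 28 these fell to 0.873 to 0.928 for Mlkl and 0.871 to 0.918 for Zbp1.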

How the data were processed

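Per the labels' protocols, liver RNA was extracted with TRIzol, poly(A)-selected, made into strand-specific dUTP libraries and read from both ends. The authors deposited 1 table of whole-number counts per Ensembl gene, with no normalization. GRCm38.p6 is the build in the submitters' processing notes, which also list, without their roles, the tools DESeq2 1.38.1, StringTie 2.2.1, STAR 2.5.2b and FastQC 0.11.5. The counting tool, its strand setting and the annotation release are not given in the sources used here, so reads of overlapping antisense genes may not be told apart.

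Symbols and positions came from GENCODE M21 (GRCm38), which matched 55154 of 55335 gene IDs, and promoter windows from RefSeq. Genotypes were compared on the counts by edgeR 4.0.16 (R 4.3.3; filterByExpr, TMM, robust quasi-likelihood fit of genotype over all 8 mice, Benjamini-Hochberg over 15234 genes). Correlations and ratios (0.5 counts added) were tested by exact permutation in Python 3.11.15 with numpy 2.4.6. The scripts were tested on simulated data. No 2 libraries agreed within sampling noise (chi-square per degree of freedom of at least 36.8). The libraries carry no molecular identifiers in the labels, so counts are of fragments, not of distinct molecules.

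The members, lists and tests were chosen with earlier results of these data known. All members were named; of each list around the complexes, the 4 genes of smallest p (1 of them is not reported here); and for Ripk1, Casp8, Mlkl and Zbp1 the 5 genes of highest r, leaving out Gm and Rik names and pseudogenes. Of the marker lists fixed beside these, the mean log2(CPM + 1) was higher in Ripk1-hepKO by 0.45 for neutrophils, 0.31 for stellate cells, 0.15 for cholangiocytes, 0.11 for B cells, 0.10 for T and NK cells and 0.03 for endothelial cells (exact permutation p of 0.0571 to 0.857, lowest for stellate cells). Ly6g and Camp (neutrophils) and Ms4a1 and Pax5 (B cells) had too few counts and were left out. So were Cd3d and Ncr1 (T and NK cells) and Cftr (cholangiocytes). Mouse 28 was the highest of all mice for neutrophils (3.03), stellate cells (4.62) and cholangiocytes (2.39). Mouse 37 was highest for B cells and for T and NK cells, and mouse 39 for endothelial cells. Among the neutrophil markers, Lcn2 had group means of 1378 and 846 CPM (Ripk1-hepKO first), against 2.24 and 0.986 for Cxcr2. Which cells the Lcn2 counts come from was not tested. Alternatives were DESeq2 1.42.0, limma 3.58.1 voom, other scalings, filters and pseudocounts, each mouse left out, and mice 28 and 40 left out together.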

Additional observations from a re-analysis of the deposited data

Results flagged for a closer look

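In 3 cases a value lay far from the other mice of its group of 4, by the gap to the nearest mouse over the range of the group. Zbp1 stood at 26.4 CPM in Ripk1-hepKO mouse 28, where the other 3 lay between 5.49 and 7.0. Traf2 stood at 13.1 CPM in Ripk1-hepKO mouse 39, against 10.04 to 10.2 in the others. Mlkl stood at 4.34 CPM in Ripk1-Con mouse 29, against 7.24 to 7.55. These are 3 of 20 groups examined (10 genes in 2 genotypes), where chance flags about 1 in 20.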

How the results depend on the processing

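No member passed the FDR under any scaling, filter, tool or left-out mouse. The count of genes past it over the whole table was 0 except with DESeq2, which called 15. Leaving out 1 mouse at a time, the log2 fold change ran from -0.32 to 0.019 for Ripk1, from -0.0027 to 0.61 for Ripk3, from -0.14 to 0.99 for Zbp1 and from -0.18 to 0.040 for Cyld, and the other 6 kept their direction. The difference in the log2 ratio ran from -0.11 to 0.42 for Cflar to Casp8 and from 0.48 to 1.21 for Ripk3 to Casp8. Without mice 28 and 40 the log2 fold change was -0.41 for Ripk1, -0.68 for Casp8, -0.32 for Ripk3 and -0.26 for Zbp1. Correlated member pairs numbered 0 to 2 with 1 mouse left out and 1 with scaling by total count. Correlations with list levels that passed numbered 0 to 2 with 1 mouse left out, 0 with scaling by total count, 0 with each genotype centred on its own mean and 0 without mice 28 and 40. Centring allows 576 pairings of the mice, and leaving out mice 28 and 40 also allows few. A lone pair could therefore not pass after adjustment in either setting. On centring, r was 0.899 for Ripk1 with the hepatocyte list and 0.961 for Ripk3 with the monocyte list. The cause of the other changes was not tested. No paired analysis was possible because the mouse numbers of the genotypes are not shared. The counts of Ripk3 in mouse 40 (11) were the lowest of any member.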
